A study of Mus musculus with 18 samples.

Results

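RNA was sequenced from CD3+ tumor-infiltrating lymphocytes (TILs), and 10 genes of the BCL2 family, out of 37236 genes in the table, are described here across the 4 groups. The 10 genes were chosen by symbol: Bcl2, Bcl2l1, Mcl1, Bcl2a1b and Bcl2a1d, which encode pro-survival proteins, Bax and Bak1, which encode effectors of cell death, and Bcl2l11, Bid and Pmaip1, which encode BH3-only proteins. The choice used symbols and no threshold on a value, but was made with earlier results of these data known, and all 10 passed the filter on low values (a mean of 10 normalized counts or more across all 18 samples).

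The BCL2 family decides whether the outer membrane of mitochondria stays intact. BAX and BAK, the effectors, form pores through which cytochrome c leaves and starts the caspase cascade. The pro-survival proteins BCL-2, BCL-XL (Bcl2l1), MCL-1 and A1 (the Bcl2a1 genes) hold effectors and BH3-only proteins in check, and BIM (Bcl2l11), BID and NOXA (Pmaip1) relieve or bypass that restraint. In T cells, BCL-2 is known as the survival factor of naive and memory cells and is maintained by IL-7, MCL-1 is needed at most stages, A1 and BCL-XL are induced on activation, and BIM drives the contraction of responding cells.

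Nr2f6+/+ (wild-type) and Nr2f6-/- C57BL/6 mice, the latter lacking the nuclear receptor NR2F6 in all cells, received 500000 cells of the melanoma line B16-OVA s.c., which carries ovalbumin as a model antigen. From d3 on they were given i.p. injections of 0.5 mg of the PD-L1 antibody 10F.9G2 (αPD-L1) or of its control antibody IgG2b (LTF-2), and tumors were taken at d14. The groups were Nr2f6+/+ with IgG2b (n = 3), Nr2f6-/- with IgG2b (n = 3), Nr2f6+/+ with αPD-L1 (n = 6) and Nr2f6-/- with αPD-L1 (n = 6). All mice bore tumors and all received an antibody, so no group is without tumor or untreated. CD4 and CD8 cells were enriched with beads, pooled and sorted for CD3, and each value is therefore an average over a mixture of T cells, in which fewer cells of a type and less RNA per cell cannot be told apart. The labels give neither the number of mice behind a sample nor separate donors, so p-values measure the spread between these samples.

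The reads counted on genes lay between 12473391 and 18609482 per sample, and values are normalized counts, that is reads per gene divided by 1 size factor per sample. Nr2f6 had 0 reads in all 9 Nr2f6-/- samples and between 20.2 and 200.8 normalized counts in the 9 Nr2f6+/+ samples. The 10 T-cell markers all had reads in every group, with sums of 94148 to 169228. Among other cell types, the 14 markers of macrophages and monocytes summed to 9458 to 19669 in the IgG2b samples and to 929.3 to 6719 in the αPD-L1 samples, without overlap. Ranges over all samples were 25.2 to 1386 for dendritic cells, 492.8 to 1884 for NK cells, 736.2 to 7137 for melanocytes, 0 to 276.8 for neutrophils, 0 to 193.3 for B cells, 0 to 2611 for platelets and 4302 to 8322 for regulatory T cells. Of the B-cell markers, Cd79a had 0 reads in all 18 samples. The log2 ratio of Cd8a to Cd4 lay between -0.32 and 3.08. Numbers given to the libraries in the labels form 2 runs, called library set 1 (numbers 28 to 39, replicates 1 to 3 of every group) and library set 2 (numbers 43 to 48, replicates 4 to 6 of the αPD-L1 groups), and values of some genes are given for each. Comparisons between antibodies thus set IgG2b samples of set 1 alone against αPD-L1 samples of both sets.

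Genes of the A1 cluster come first because their reads cannot be assigned with certainty. Bcl2a1b (ENSMUSG00000089929, mm10 chromosome 9, 89199209 to 89207827, plus strand) and Bcl2a1d (ENSMUSG00000099974, chromosome 9, 88723285 to 88731914, minus strand) are near-identical copies. Of 817 aligned bases of their reference transcripts, 7 differed, an identity of 99.1%, and 74.1% of all words of 50 bases in the last 300 bases of each transcript occurred in the other. The library kit reads the 3′ end, so a read from that stretch may fit either copy, and the deposited counts kept the primary alignment of such reads. The same duplication reaches into the promoters. The 250 bases before the annotated start are shown for the 3 copies with a near-identical promoter. They are from RefSeq on GRCm38.p6, 5′ to 3′ in the direction of transcription, with matches to TGANTCA in capitals. TGANTCA is the AP-1 motif with its middle base left free, and AP-1 is a factor of T-cell activation. It was found in no promoter window of the other members searched.

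Bcl2a1b, chr9:89199023-89199272, plus strand: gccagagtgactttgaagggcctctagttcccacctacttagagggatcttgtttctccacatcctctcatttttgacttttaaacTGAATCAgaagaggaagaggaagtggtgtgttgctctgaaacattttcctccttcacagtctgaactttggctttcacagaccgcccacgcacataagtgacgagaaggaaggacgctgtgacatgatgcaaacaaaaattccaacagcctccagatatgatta
Bcl2a1d, chr9:88731851-88732100, minus strand: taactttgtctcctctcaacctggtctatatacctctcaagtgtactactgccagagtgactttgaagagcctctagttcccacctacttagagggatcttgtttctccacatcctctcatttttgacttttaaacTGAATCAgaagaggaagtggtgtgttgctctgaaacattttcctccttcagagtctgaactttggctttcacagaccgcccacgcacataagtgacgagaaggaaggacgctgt
Bcl2a1a, chr9:88956670-88956919, plus strand: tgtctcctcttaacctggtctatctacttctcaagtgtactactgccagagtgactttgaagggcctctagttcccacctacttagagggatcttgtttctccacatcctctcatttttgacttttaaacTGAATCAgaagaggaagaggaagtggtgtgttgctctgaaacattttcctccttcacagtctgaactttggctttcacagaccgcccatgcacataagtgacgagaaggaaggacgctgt

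In these windows Bcl2a1b and Bcl2a1d differed at 2 of 200 aligned bases, beside a gap of 6 bases. The match to TGANTCA began 164 bases before the RefSeq start of Bcl2a1b, 114 before that of Bcl2a1d and 120 before that of Bcl2a1a. It read TGAATCA in each, with A at the free base, and forms with C or G there were not counted apart. The RefSeq start of Bcl2a1b lies further downstream in the shared sequence. GENCODE, the source of the gene positions, places the starts inside these windows, at 89199209 (Bcl2a1b), 88731914 (Bcl2a1d) and 88956900 (Bcl2a1a). By GENCODE the last bases of each window thus belong to the gene, and the motif lies nearer to the start but still before it. Which start these cells use was not tested. Windows of 300 bases (250 before to 50 after a start) were searched on both strands for 32851 starts of all genes, and 7.81% held TGANTCA. Of the 12 windows of the 9 members searched, 2 held it, those of Bcl2a1b and Bcl2a1d. Pmaip1 was left out of the search. AGGTCA, the hexamer bound by many nuclear receptors, was in 1 of the 12 windows, of Bcl2l1, and in 16.3% of all windows. The NF-kB motif was likewise in 1 window of Bcl2l1 and in 8.46% of all. GGAAA, the core bound by NFAT, was in 10 of the 12 windows and in 61.3% of all windows, and GGAAA overlapped none of the TGANTCA matches. A match of letters describes the sequence and shows no binding.

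Bcl2a1b was lower in Nr2f6-/- than in Nr2f6+/+ TILs under αPD-L1 at the unadjusted level only. With αPD-L1 its normalized counts ranged from 1985 to 4482 (median 3810) in Nr2f6+/+ and from 1249 to 4668 (median 1873) in Nr2f6-/- samples. The groups overlapped, and the highest value of all 18 samples belonged to Nr2f6-/- replicate 6. The log2 fold change was -0.65 ± 0.25 (SE), with a 95% interval from -1.16 to -0.15 and an adjusted p of 0.36 by limma over all genes. With IgG2b the values were 2693, 2782 and 2816 in Nr2f6+/+ and 2062, 2659 and 2047 in Nr2f6-/- samples. All 3 Nr2f6-/- values lay below all 3 Nr2f6+/+ values, which was so, in either direction, for 14.2% of the 11992 genes tested. This difference was -0.30 ± 0.35 on the log2 scale (adjusted p = 0.991 by limma).

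Bcl2a1d showed the widest difference between the library sets of any member in the Nr2f6-/- αPD-L1 group. In Nr2f6-/- TILs with αPD-L1 its normalized counts were 612.8, 691.1 and 408.2 in library set 1 and 2124, 3358 and 2320 in library set 2. The 3 samples of set 1 were lower than the other 15 samples of the series, and the 3 of set 2 were higher than the other 15. The share of all genes ordered in this way was not counted. In Nr2f6+/+ TILs with αPD-L1 the values were 905.4, 2077 and 1556 in set 1 and 2075, 1944 and 1931 in set 2, which overlapped. Under IgG2b, Bcl2a1d stood at 1755, 1348 and 1917 in Nr2f6+/+ and at 1323, 1834 and 1253 in Nr2f6-/- samples, again overlapping.

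Over both sets, Bcl2a1d differed between genotypes under αPD-L1 by -0.50 ± 0.36 on the log2 scale (adjusted p = 0.694 by limma), and the interval from -1.24 to 0.25 includes 0. It was -0.14 by edgeR and by DESeq2, -0.19 without Nr2f6-/- replicate 3 and -0.80 without Nr2f6-/- replicate 5. When the 2 library sets were given means of their own, a model chosen after the values were seen, Bcl2a1d was lower in Nr2f6-/- TILs in set 1, by -1.36 ± 0.31 (adjusted p = 0.0299 by limma), where 0.709% of all genes passed. In set 2 the difference was 0.36 ± 0.31 (adjusted p = 0.799), where 0.0334% passed. The difference between these differences was 1.72 ± 0.43 (adjusted p = 0.172 by limma), which did not pass, where 0.0584% of genes did. Within the Nr2f6-/- group, Bcl2a1d was higher in set 2 than in set 1 by 2.19 ± 0.31 (adjusted p = 0.000225 by limma), 1 of 10 members called where 1.03% of all genes were. When only the Nr2f6-/- αPD-L1 samples entered the fit, the adjusted p was 0.119 by limma, and 0% of all genes passed. Within the Nr2f6+/+ group the same contrast was 0.47 ± 0.31 (adjusted p = 0.709), 0 of 10 members were called and 0.00834% of all genes were. Bcl2a1d was not called between genotypes under αPD-L1 when only the samples of set 1 were fitted by limma, where 34 of 11992 genes passed. The genotype call in set 1 therefore rests on 3 samples per genotype and on the model chosen after the values were seen. It was not seen in set 2.

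Bcl2a1b differed between the sets in the same direction as Bcl2a1d, by less. In Nr2f6-/- TILs with αPD-L1 it stood at 1686, 1249 and 1540 in set 1 and at 2061, 2976 and 4668 in set 2. These did not overlap, and the share of all genes separated between the sets was not counted. Bcl2a1b differed between the sets there by 1.05 ± 0.29 on the log2 scale (adjusted p = 0.0808 by limma). Its genotype difference was -1.05 ± 0.29 in set 1 (adjusted p = 0.0893) and -0.26 ± 0.29 in set 2 (adjusted p = 0.857). When the 4 Bcl2a1 rows were summed, so that the assignment of reads between copies played no part, the sums were 2341, 1965 and 1969 in set 1 and 4198, 6353 and 7078 in set 2 of the Nr2f6-/- αPD-L1 group. The summed row was 1.46 higher in set 2 on the log2 scale (adjusted p = 0.00278 by limma).

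The log2 ratio of Bcl2a1d to Bcl2a1b lay between -1.92 and -0.85 in set 1 and between -1.01 and 0.17 in set 2 of the Nr2f6-/- αPD-L1 group, and these ranges overlap. Over the 18 samples the log2 values of both genes correlated with r = 0.76 (permutation p = 0.0001, adjusted p = 0.00225) and rho = 0.78 (permutation p = 0.00024, adjusted p = 0.0048), among 45 pairs of members. Without the 2 samples farthest from the median of Bcl2a1b r was 0.72. It was 0.85 within set 1 (n = 12) and -0.08 within set 2 (n = 6), and the difference between the sets was not tested. Reads from stretches common to the copies may enter either value.

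**Figure D1:**
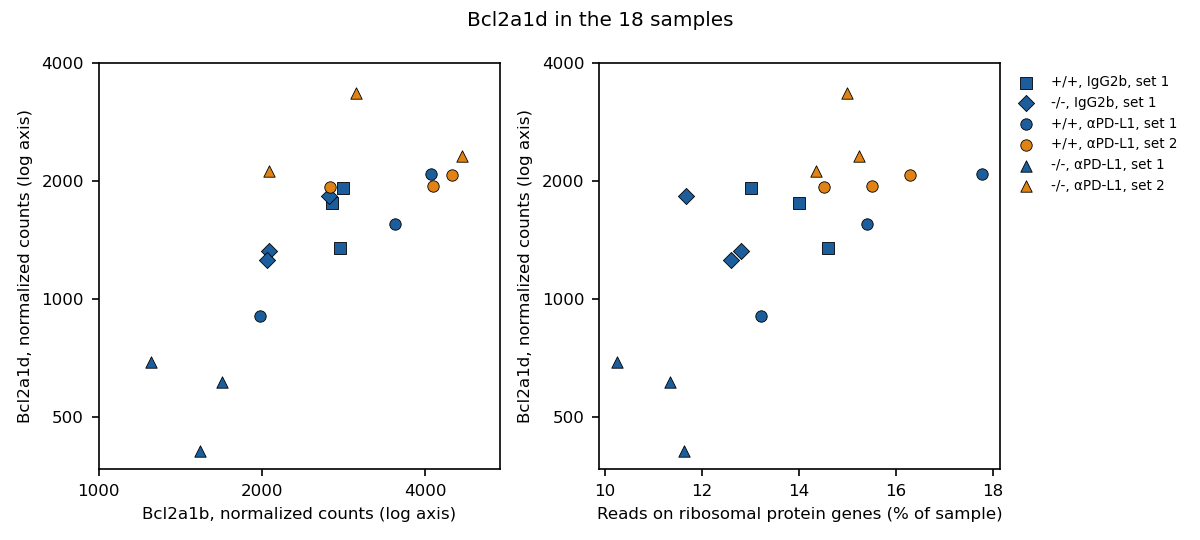
Bcl2a1d in each of the 18 samples, in normalized counts on a log axis, against Bcl2a1b (left, log axis) and against the share of reads on 80 ribosomal protein genes (right, %); symbols mark the group and colors the library set. The 3 Nr2f6-/- αPD-L1 samples of set 1 lie lowest, at 408.2 to 691.1, and have ribosomal shares of 10.2 to 11.6%.

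Other transcripts moved with the A1 genes. The rule for likeness took the highest Pearson r of log2 values over 18 samples among the 8541 genes with a mean of at least 100. An r picked as the highest of so many, for any member, is high by selection, and no p was computed. By this rule, the nearest genes to Bcl2a1d were Rps16 (r = 0.92) and Rps23 (r = 0.91), and to Bcl2a1b Rpl6 (r = 0.89) and Rps15 (r = 0.86). All 4 encode ribosomal proteins. After group means were subtracted, Cox5b (r = 0.94), a subunit of cytochrome c oxidase, and Rps16 (r = 0.92) were nearest to Bcl2a1d, and Psmb3 (r = 0.89), a proteasome subunit, and Usmg5 (r = 0.88) to Bcl2a1b. The share of reads on ribosomal protein genes, a set chosen after these values were seen, was 10.2 to 11.6% in set 1 and 14.3 to 15.2% in set 2 of the Nr2f6-/- αPD-L1 group. In the Nr2f6+/+ αPD-L1 group it was 13.2 to 17.8% and 14.5 to 16.3%. The share of reads on 37 mitochondrially encoded genes was 4.47 to 4.85% in set 1 and 4.80 to 7.06% in set 2 of the Nr2f6-/- αPD-L1 group, and 6.91 to 8.90% and 3.14 to 4.27% in the Nr2f6+/+ αPD-L1 group. Like Bcl2a1d, it was thus lower in Nr2f6-/- than in Nr2f6+/+ samples in set 1 and higher in set 2, without overlap in either set. The log2 ratio of Cd8a to Cd4 in the Nr2f6-/- αPD-L1 group was 1.69 to 2.06 in set 1 and 0.95 to 3.08 in set 2, and macrophage marker sums were 1126 to 2609 and 929.3 to 2062, so both overlapped between the sets. The part of the library set, of ribosomal and mitochondrial reads and of cell composition in the A1 values was not tested.

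Of the pro-survival genes, Bcl2 (ENSMUSG00000057329, chromosome 1, 106538178 to 106714274, minus strand) was highest in Nr2f6+/+ TILs with IgG2b. Its normalized counts were 1673, 1729 and 1490 in that group and 959.8, 114.0 and 1530 in Nr2f6-/- TILs with IgG2b. A single sample, Nr2f6-/- replicate 2, had 121 reads and was the lowest of the series. With αPD-L1 the values ranged from 384.4 to 1527 (median 1125) in Nr2f6+/+ and from 800.0 to 1312 (median 1043) in Nr2f6-/- samples. The whole Nr2f6-/- range lay within that of Nr2f6+/+ samples.

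With IgG2b the genotype difference of Bcl2 was -1.56 ± 0.57 (SE) on the log2 scale, with an unadjusted p of 0.0103 and an adjusted p of 0.846 by limma. By edgeR and by DESeq2 it was -0.91 (unadjusted p = 0.0906 and 0.0908). Without Nr2f6-/- replicate 2 it was -0.42 by limma, so that sample set the size. Under αPD-L1 the difference was 0.09 ± 0.40, with an interval from -0.74 to 0.91 (adjusted p = 0.966). Between treatments Bcl2 differed by -0.73 ± 0.49 in Nr2f6+/+ (adjusted p = 0.834) and by 0.92 ± 0.49 in Nr2f6-/- TILs (adjusted p = 0.565), and the difference of these effects was 1.64 ± 0.70 (adjusted p = 0.974 by limma). The last value was 0.90 by edgeR and by DESeq2, and 0.51 by limma without Nr2f6-/- IgG2b replicate 2. All 6 Nr2f6-/- αPD-L1 samples lay below all 3 Nr2f6+/+ IgG2b samples, which was so, in either direction, for 6.17% of genes, and the fold change was -0.64 ± 0.49 (adjusted p = 0.806). The nearest genes to Bcl2 by the rule were Pcmtd1 (r = 0.87) and Rdh13 (r = 0.85), and the same pair after group means were subtracted (r = 0.90 and 0.89).

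Mcl1 (ENSMUSG00000038612, chromosome 3, 95658788 to 95663176, plus strand) had the narrowest spread of the 10 genes. Its normalized counts were 9705, 9604 and 10147 in Nr2f6+/+ and 10280, 9299 and 10846 in Nr2f6-/- TILs with IgG2b. With αPD-L1 they ranged from 5749 to 11804 (median 8393) and from 6195 to 9912 (median 8728). The within-group SD of Mcl1 was 0.25 on the log2 scale, and 3.44% of the genes tested had a smaller one. Its genotype difference was -0.03 ± 0.15 under αPD-L1, with an interval from -0.35 to 0.28 (adjusted p = 0.965), and 0.04 ± 0.22 under IgG2b, from -0.40 to 0.49. Of all members, the intervals of Mcl1 were the narrowest and leave the least room for a difference between genotypes. Its treatment differences were -0.20 ± 0.19 in Nr2f6+/+ and -0.28 ± 0.19 in Nr2f6-/- TILs (adjusted p = 0.878 and 0.688 by limma). With a replicate block they were -0.40 and -0.48 (adjusted p = 0.701 and 0.415 by limma). Set 1 alone holds both antibodies. In set 1, Mcl1 with αPD-L1 was 5749 to 8171 in Nr2f6+/+ and 6195 to 8471 in Nr2f6-/- samples, below every IgG2b sample. The share of all genes separated in this way was not counted. In set 2 it was 8616 to 11804 and 8984 to 9912. Mcl1 was higher in set 2 than in set 1 in Nr2f6+/+ TILs with αPD-L1 by 0.47 ± 0.18 (adjusted p = 0.48). The nearest genes were Klk1 (r = 0.76) and Atp10a (r = 0.76), and after group means Usp5 and Atp10a (r = 0.79 for both).

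Bcl2l1 (ENSMUSG00000007659, chromosome 2, 152780668 to 152831728, minus strand) varied far more. Its normalized counts were 1634, 1168 and 1289 in Nr2f6+/+ and 1112, 1268 and 373.7 in Nr2f6-/- TILs with IgG2b. With αPD-L1 they ranged from 388.9 to 2338 (median 1339) in Nr2f6+/+ and from 231.0 to 1703 (median 846.7) in Nr2f6-/- samples. The mean was lower in Nr2f6-/- TILs with either antibody, by -0.74 ± 0.59 with IgG2b (adjusted p = 0.989) and -0.61 ± 0.41 with αPD-L1 (adjusted p = 0.67), and both intervals include 0. Without Nr2f6-/- replicate 3 the first of these was -0.18, and the second was -0.26 without Nr2f6-/- replicate 2 and -0.93 without Nr2f6+/+ replicate 3. In the Nr2f6-/- αPD-L1 group Bcl2l1 was 756.0, 231.0 and 561.3 in set 1 and 1703, 937.3 and 1386 in set 2, a difference of 1.50 ± 0.50 (adjusted p = 0.186 by limma). Bcl2l1 did not overlap between these sets, for which the share of all genes was not counted. Its nearest genes were Txn1 and Ehd1 (r = 0.76 and 0.75), and Ube2l3 and Bub3 after group means (r = 0.82 and 0.81).

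**Figure D2:**
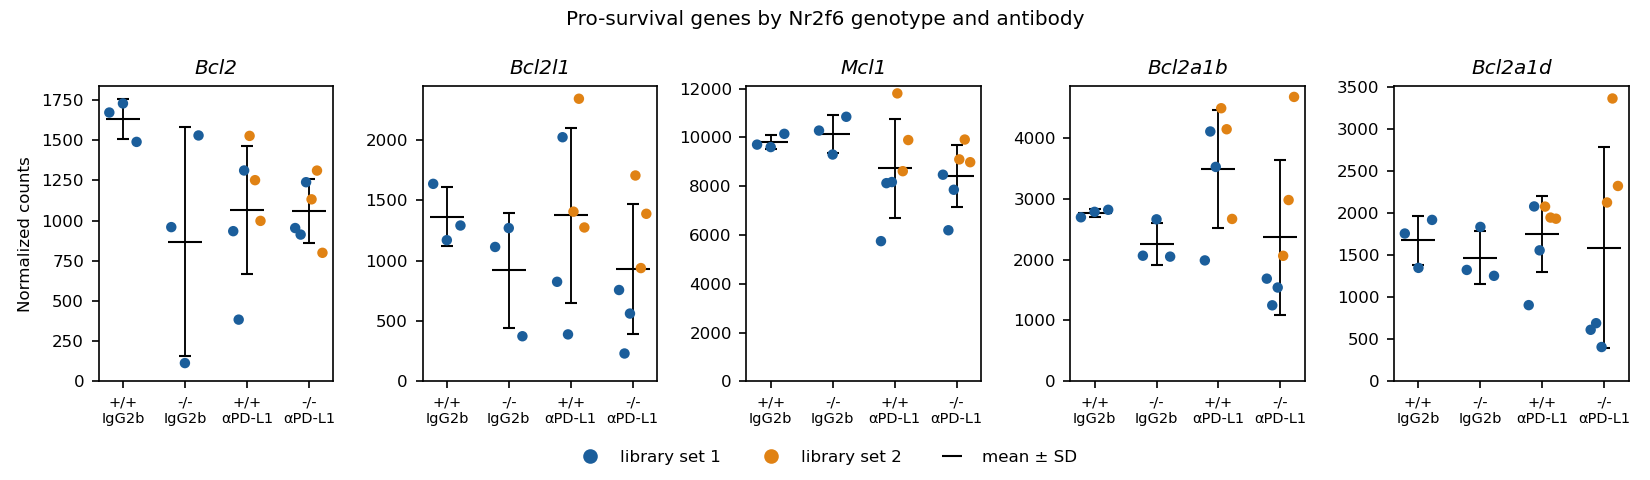
Normalized counts of the 5 pro-survival genes in each sample by Nr2f6 genotype (+/+ or -/-) and antibody; points are samples colored by library set, bars the mean and SD of a group. Bcl2a1d in the Nr2f6-/- αPD-L1 group splits into 408.2 to 691.1 in set 1 and 2124 to 3358 in set 2, and Mcl1 shows the smallest relative spread.

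The effector genes varied together across samples, and their groups overlapped. Bax (ENSMUSG00000003873, chromosome 7, 45461697 to 45466898, minus strand) had normalized counts of 253.0, 321.0 and 408.0 in Nr2f6+/+ and of 294.9, 321.3 and 210.3 in Nr2f6-/- TILs with IgG2b. With αPD-L1 it ranged from 65.0 to 607.8 (median 207.4) and from 38.1 to 403.3 (median 253.2). Bak1 (ENSMUSG00000057789, chromosome 17, 27019810 to 27029009, minus strand) had 1119, 1066 and 1600 in Nr2f6+/+ and 1580, 956.4 and 1226 in Nr2f6-/- TILs with IgG2b. Its αPD-L1 values ranged from 504.8 to 2412 (median 829.3) in Nr2f6+/+ and from 620.5 to 1986 (median 1263) in Nr2f6-/- samples. The same sample, Nr2f6+/+ αPD-L1 replicate 1, had the highest value of the series for both effectors.

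Under αPD-L1 the genotype difference was 0.06 ± 0.57 for Bax, with an interval from -1.10 to 1.22, and 0.36 ± 0.32 for Bak1, from -0.29 to 1.01 (adjusted p = 0.984 and 0.759 by limma). These intervals leave room for a change of more than 1 log2 unit of Bax in either direction. Across the 18 samples Bax and Bak1 correlated with r = 0.81 (permutation p = 1e-05, the smallest that 100000 resamples can give, adjusted p = 0.00045) and rho = 0.83 (permutation p = 8e-05, adjusted p = 0.0036). Without the 2 samples farthest from the median of Bax r was 0.81, and it was 0.80 in set 1 (n = 12) and 0.70 in set 2 (n = 6). Unlike the relation between the A1 genes, this one had the same sign in both sets. In the Nr2f6-/- αPD-L1 group Bak1 was 1986, 1765 and 1438 in set 1 and 670.2, 1088 and 620.5 in set 2, the opposite order to the A1 genes, a difference of -1.16 ± 0.39 (adjusted p = 0.184 by limma). Bax was likewise lower in set 2, at 186.8, 204.2 and 38.1 against 329.2, 302.2 and 403.3 (-1.58 ± 0.75, adjusted p = 0.441). The gene nearest to Bak1 was Ltb (r = 0.90), which encodes lymphotoxin beta, followed by Raly (r = 0.87), and to Bax Rock1 (r = 0.88), a kinase of the cytoskeleton, followed by Dnaaf5 (r = 0.87). After group means Ltb and Metap2 (r = 0.93 and 0.89) and Rock1 and Dnaaf5 (r = 0.90 and 0.87) were nearest.

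Among the BH3-only genes, Bcl2l11 (ENSMUSG00000027381, chromosome 2, 128126038 to 128162547, plus strand), which encodes BIM, was the steadiest. It had 3712, 4967 and 6289 normalized counts in Nr2f6+/+ and 4849, 5299 and 5063 in Nr2f6-/- TILs with IgG2b. With αPD-L1 it ranged from 2338 to 5225 (median 3342) in Nr2f6+/+ and from 3384 to 5033 (median 4329) in Nr2f6-/- samples. All 4 groups overlapped. In Nr2f6+/+ TILs Bcl2l11 was lower with αPD-L1 than with IgG2b by -0.46 ± 0.23 on the log2 scale (adjusted p = 0.685 by limma), which did not pass. In Nr2f6-/- TILs the same contrast was -0.28 ± 0.23 (adjusted p = 0.755), and the genotype difference under αPD-L1 was 0.24 ± 0.18, with an interval from -0.13 to 0.62. The log2 ratio of Bcl2l11 to Bcl2 ranged from 1.15 to 2.08 in Nr2f6+/+ IgG2b, from 1.23 to 2.94 in Nr2f6+/+ αPD-L1 and from 1.65 to 2.65 in Nr2f6-/- αPD-L1 samples. It reached 5.54 in Nr2f6-/- IgG2b replicate 2, the sample with little Bcl2. The log2 ratio of Bcl2l11 to Mcl1 stayed between -2.08 and -0.64 in all 18 samples. The genes nearest to Bcl2l11 were Tmed5 (r = 0.76) and Scfd2 (r = 0.74), and after group means Ndufs7 and Bub1 (r = 0.82 and 0.79).

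Bid (ENSMUSG00000004446, chromosome 6, 120891930 to 120916853, minus strand), whose protein links caspase-8 to mitochondria, had 541.2, 656.6 and 676.6 normalized counts in Nr2f6+/+ and 442.3, 509.8 and 493.4 in Nr2f6-/- TILs with IgG2b. These did not overlap, as for 14.2% of all genes in this comparison, and the log2 fold change was -0.37 ± 0.65, with an interval from -1.70 to 0.96. With αPD-L1 Bid ranged from 180.7 to 736.2 (median 426.7) in Nr2f6+/+ and from 116.9 to 1375 (median 406.3) in Nr2f6-/- samples. The genotype difference was 0.07 ± 0.46, with an interval from -0.87 to 1.01. In the Nr2f6-/- αPD-L1 group Bid was 645.4, 514.9 and 1375 in set 1 and 297.7, 116.9 and 263.6 in set 2, in the order of the effectors (-1.87 ± 0.55, adjusted p = 0.117 by limma). Bid did not overlap between these sets, for which the share of all genes was not counted. Its nearest genes were Pdcd6ip (r = 0.84) and Stx7 (r = 0.74), and after group means Pdcd6ip and Man1a (r = 0.87 and 0.86).

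Pmaip1 (NOXA, the partner that targets MCL-1 for degradation) ranged from 145.7 to 607.9 normalized counts over the 18 samples. It had 247.7, 251.2 and 371.5 in Nr2f6+/+ and 607.9, 336.4 and 302.9 in Nr2f6-/- TILs with IgG2b, with the highest value in Nr2f6-/- replicate 1. With αPD-L1 the medians were 283.7 in Nr2f6+/+ and 341.4 in Nr2f6-/- samples, and the genotype difference was 0.26 ± 0.41, with an interval from -0.59 to 1.11. It was 0.75 ± 0.56 in set 1 and -0.23 ± 0.56 in set 2 (adjusted p = 0.706 and 0.956 by limma). Nabp2 and Cap1 (r = 0.83 for both) were nearest to Pmaip1, and Krcc1 and Snrnp40 after group means (r = 0.89 and 0.85).

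**Figure D3:**
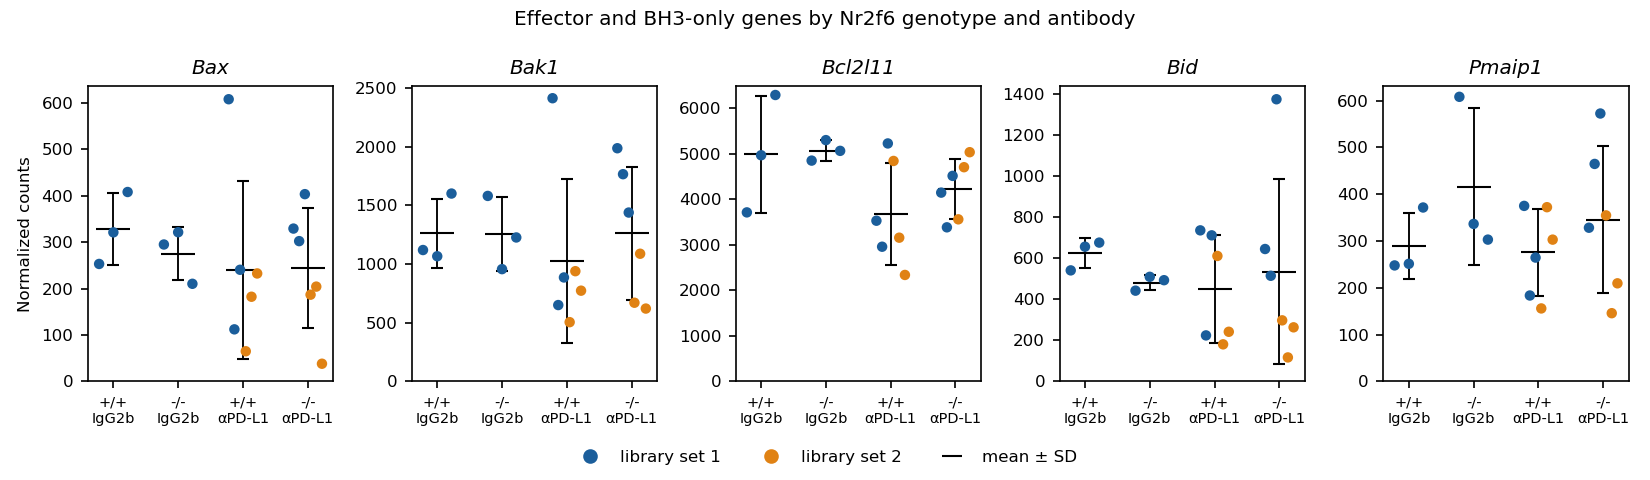
Normalized counts of the effector genes Bax and Bak1 and the BH3-only genes Bcl2l11, Bid and Pmaip1 in each sample, by Nr2f6 genotype and antibody; points are samples colored by library set, bars the mean and SD. Bax and Bak1 are highest in the same Nr2f6+/+ αPD-L1 sample, at 607.8 and 2412.

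Across the family, 0 of the 10 members passed an adjusted p of 0.05 in any comparison of the 4 groups by limma, by edgeR or by DESeq2. Between genotypes 0.175% of all genes passed under αPD-L1 and 0% under IgG2b. Between treatments 0.242% passed in Nr2f6+/+ and 0.325% in Nr2f6-/- TILs. Between Nr2f6-/- with αPD-L1 and Nr2f6+/+ with IgG2b, the groups that differ in both factors, 0.617% passed, and for the difference of the treatment effects 0%. These comparisons share samples. The shares above are those of limma. In the same order of comparisons, 22, 0, 19, 36, 41 and 0 of 11992 genes passed by edgeR. By DESeq2, 184, 88, 94, 230, 177 and 76 of 11736 genes passed. By each tool a count of 0 among 10 genes is near the background. Of the 10 members, 6 had a log2 fold change above 0 between genotypes under αPD-L1 (median 0.07, against -0.0049 over all genes) and 3 under IgG2b (-0.22 against -0.06). Between treatments 2 of 10 were above 0 in Nr2f6+/+ (-0.33 against -0.10) and 1 of 10 in Nr2f6-/- TILs (-0.27 against -0.04).

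At an unadjusted p under 0.05, 1 member was found under αPD-L1 between genotypes (Bcl2a1b, 9.73% of all genes), 1 under IgG2b (Bcl2, 5.35%), 1 between treatments in Nr2f6+/+ (Bcl2l11, 7.24%), 0 in Nr2f6-/- (9.7%), 0 between the groups differing in both factors (9.04%) and 1 for the difference of effects (Bcl2, 4.97%). These counts are likewise near the background of 10 genes. Groups did not overlap for 0 members between genotypes under αPD-L1, where 0.592% of genes did not, and for 2 of 10 under IgG2b (Bcl2a1b and Bid, both lower in Nr2f6-/-), near the 14.2% of all genes. Between treatments 0 members separated in Nr2f6+/+ or in Nr2f6-/- TILs, where 4.54% and 5.12% of genes did. The macrophage marker sums were higher in every IgG2b sample than in every αPD-L1 sample, and their part in the treatment comparisons was not tested. With IgG2b they were 15948 to 19669 in Nr2f6+/+ and 9458 to 13196 in Nr2f6-/- samples. In the same order, platelet sums were 2300 to 2611 and 267.6 to 703.0, and melanocyte sums 2382.5 to 4589 and 1152 to 2200. T-cell sums were 94148 to 112290 and 127960 to 135619. None of these overlapped, nor did B-cell sums, while regulatory T-cell, NK-cell, dendritic-cell and neutrophil sums overlapped. The part of these sums in the genotype comparison was not tested.

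**Figure D4:**
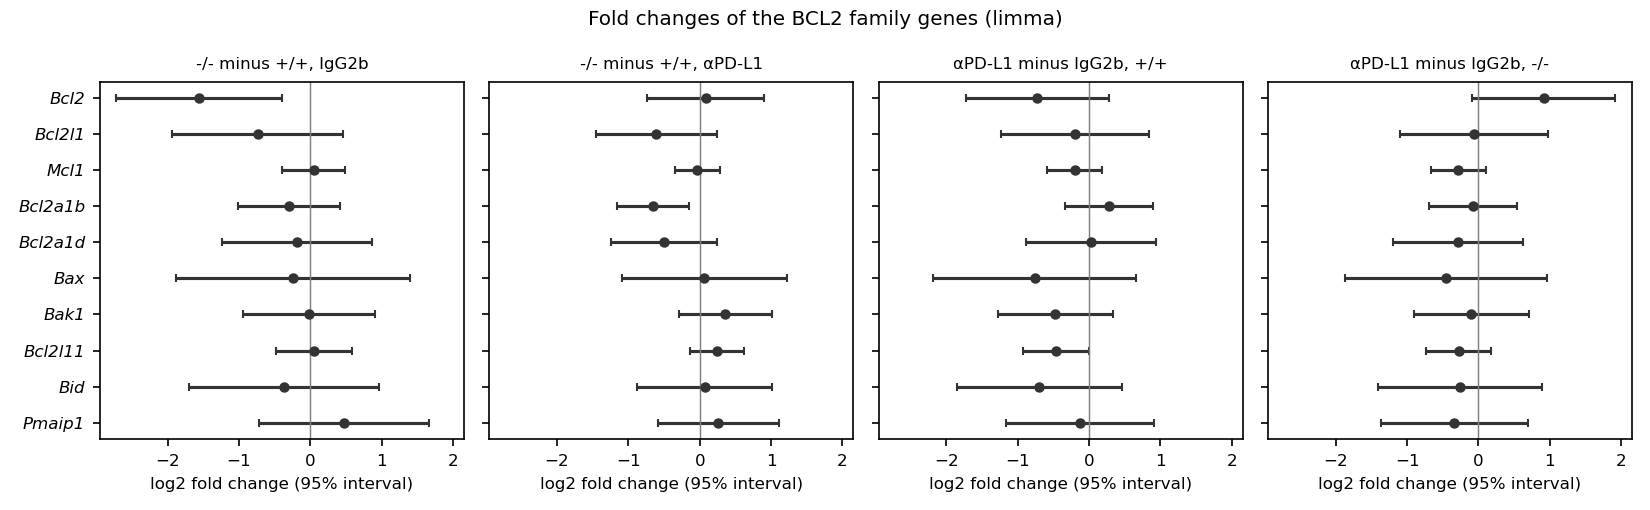
Log2 fold changes of the 10 members with 95% intervals from limma, for Nr2f6-/- minus Nr2f6+/+ with IgG2b (n = 3 and 3) and αPD-L1 (n = 6 and 6), and for αPD-L1 minus IgG2b in each genotype (n = 6 and 3). Intervals are narrowest for Mcl1 and widest for Bax, and those that leave out 0 belong to Bcl2 with IgG2b, Bcl2a1b with αPD-L1 and Bcl2l11 in Nr2f6+/+.

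Members differed from each other in how much they varied within groups. Within-group SDs on the log2 scale were 0.25 for Mcl1 and 0.33 for Bcl2l11, 0.51 for Bcl2a1b, 0.59 for Pmaip1 and 0.65 for Bak1. They were 0.81 for Bcl2a1d, 0.88 for Bcl2, 0.92 for Bcl2l1 and Bid and 0.99 for Bax. The median of all genes tested was 0.88, and that of the 4608 genes with a mean of at least 500 was 0.44. Of the 8 members above that mean, Mcl1 and Bcl2l11 lay below its median SD and the other 6 above it.

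The members formed blocks across samples. Of 45 pairs, 12 had an adjusted permutation p under 0.05 for Pearson's r. The permutation moved samples freely between groups and library sets, so its p-values take no account of either. The share of pairs of other genes that would pass was not computed, so the count cannot be read as a trait of the family. The positive pairs were Bcl2a1b, Bcl2a1d and Bcl2l1 among themselves and Bax, Bak1 and Pmaip1 among themselves, and the negative pairs joined an A1 gene to Bax, Bak1, Pmaip1 or Bid. Bcl2a1b and Bak1 gave r = -0.74 (permutation p = 0.00058, adjusted p = 0.00652) and rho = -0.73 (permutation p = 0.00101, adjusted p = 0.00771). Without the 2 samples farthest from the median of Bcl2a1b r was -0.69, and it was -0.77 in set 1 (n = 12) and -0.27 in set 2 (n = 6). Bcl2a1d and Bid gave r = -0.73 (permutation p = 0.00048, adjusted p = 0.00652) and rho = -0.69 (permutation p = 0.00213, adjusted p = 0.012), with r of -0.63 without the 2 farthest samples, -0.63 in set 1 and -0.58 in set 2. Of the 12 pairs, Bcl2l1 and Bcl2a1d had opposite signs in the sets (r = 0.57 in set 1 and -0.73 in set 2), as did Bcl2a1d and Bak1 (-0.62 and 0.49) and the A1 pair given above. Bcl2, Mcl1 and Bcl2l11 entered none of the 12. Depth, library set and ribosomal reads are shared by all genes of a sample, and their part in these correlations was not tested.

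**Figure D5:**
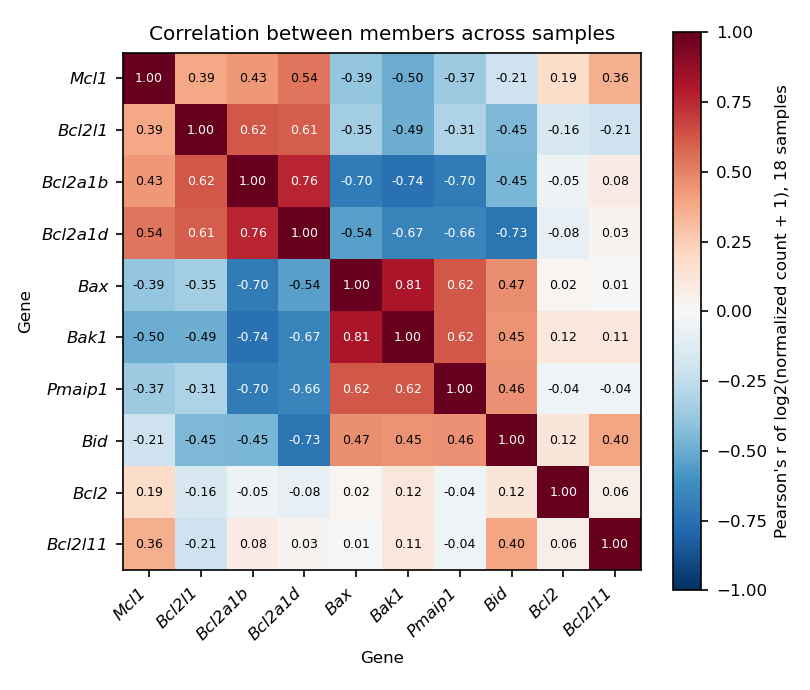
Pearson's r between the log2 values of the 10 members over the 18 samples, with both axes listing the genes. Bcl2l1, Bcl2a1b and Bcl2a1d form a positive block (0.61 to 0.76), Bax, Bak1 and Pmaip1 another (0.62 to 0.81), and A1 genes run against the latter (-0.74 to -0.54).

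The 16 other BCL2 family genes listed were all in the table and 11 passed the filter on low values. Bad, a BH3-only sensitizer, ranged from 386.8 to 1225 normalized counts, Bcl2l13 from 233.1 to 1176, Bnip3l from 500.3 to 1357 and Bnip3 from 284.3 to 3136, the last pair being mitophagy receptors. Bbc3 (PUMA), a target of p53, ranged from 1.80 to 498.3. Bcl2a1a, the third A1 copy, ranged from 6.27 to 91.2, Bcl2l2 (BCL-W) from 0 to 105.9, Bik from 0 to 143.6, Bmf from 0 to 100.3, Bcl2l12 from 0 to 68.8 and Bcl2l14 from 0 to 74.7. Under the filter were Bok (0 to 87.7), Bcl2l15 (0 to 57.4), Bcl2a1c (0 to 4.11), and Bcl2l10 and Hrk, each with 1 read in a single sample. Among the 11 tested, 0 passed in any comparison. Under αPD-L1 the genotype differences with the smallest p were those of Bnip3 at -0.93 ± 0.41 and Bnip3l at -0.49 ± 0.23 (adjusted p = 0.463 and 0.504 by limma). Of the 11, 6 had a fold change above 0 there, with a median of 0.18 against -0.0049 over all genes.

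Downstream of mitochondria, 19 of 20 listed genes of the apoptosis machinery were in the table and tested, and 0 passed in any comparison. Under αPD-L1, 7 of 19 were higher in Nr2f6-/- TILs, with a median log2 fold change of -0.06 against -0.0049 over all genes. The smallest p belonged to Endog, a mitochondrial nuclease, with 100.2 to 377.4 normalized counts (median 188.8) in Nr2f6+/+ and 8.02 to 178.1 (median 24.7) in Nr2f6-/- TILs. The groups overlapped, and the difference was -2.82 ± 0.80 (adjusted p = 0.185 by limma). Diablo, the antagonist of IAP proteins, and Dffb, the caspase-activated nuclease, followed at -0.63 ± 0.32 and -2.57 ± 1.37. In Nr2f6-/- αPD-L1 samples Diablo was 308.2 to 590.4 in set 1 and 1110 to 1220 in set 2. In Nr2f6+/+ αPD-L1 samples it was 727.9 to 1846 and 880.6 to 1114, so the sets differed in direction. Dffb in Nr2f6-/- αPD-L1 samples was 24.2 to 138.1 in set 1 and 0 to 0.999 in set 2, where no sample had more than 1 read. With IgG2b, Casp2 was at 0.60 ± 0.37 and Birc5 at -0.30 ± 0.22 between genotypes. Birc5 (survivin), which also marks dividing cells, was 0.63 ± 0.19 higher with αPD-L1 in Nr2f6-/- TILs (adjusted p = 0.2). In Nr2f6+/+ TILs, Casp8 was at 0.58 ± 0.30 and Xiap, a caspase inhibitor, at -0.39 ± 0.23 between treatments.

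Of 14 upstream regulators tested, 0 passed in any comparison, and under αPD-L1 6 were higher in Nr2f6-/- TILs (median log2 fold change -0.01). Zbtb7b, the CD4 lineage factor ThPOK, had 333.5 to 1164 normalized counts (median 781.8) in Nr2f6+/+ and 107.3 to 771.5 (median 344.4) in Nr2f6-/- TILs with αPD-L1. The difference was -1.30 ± 0.43 (adjusted p = 0.289 by limma). Foxo3, which can activate Bcl2l11, was at 0.51 ± 0.26 and Rel, an NF-kB subunit, at -0.92 ± 0.50. Under IgG2b, Rela was at -0.67 ± 0.30, Huwe1, a ligase of MCL-1, at -0.73 ± 0.34 and Stat5b at -0.97 ± 0.47 between genotypes.

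Il7r, the receptor of the cytokine that maintains BCL-2, had, like Bcl2, its highest mean in Nr2f6+/+ TILs with IgG2b. It had 1078 to 2044 normalized counts in Nr2f6+/+ IgG2b, 750.1 to 1220 in Nr2f6-/- IgG2b, 289.5 to 1420 in Nr2f6+/+ αPD-L1 and 487.1 to 1270 in Nr2f6-/- αPD-L1 samples. Between treatments it differed by -1.14 ± 0.39 in Nr2f6+/+ (adjusted p = 0.412) and by -0.70 ± 0.39 in Nr2f6-/- TILs (adjusted p = 0.595). Between the groups differing in both factors the value was -1.37 ± 0.39 (adjusted p = 0.122 by limma). Prdm1 (BLIMP-1), a factor of effector differentiation, was 0.61 ± 0.23 higher with αPD-L1 in either genotype (adjusted p = 0.525 and 0.333), and Rela was 0.57 ± 0.26 higher in Nr2f6-/- TILs (adjusted p = 0.473). Rela in Nr2f6-/- TILs was 1312 to 2570 with IgG2b. With αPD-L1 it was 2123 to 2718 in set 1 and 2651 to 3943 in set 2. In Nr2f6+/+ αPD-L1 samples it was 1491 to 2662 and 2611 to 3163. The part of the library set was not tested. None of these differences passed the threshold over all genes.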

How the data were processed

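RNA from CD3+ TILs was sequenced with a 3′ end kit (QuantSeq, Ion Torrent Proton). Per the labels and the methods, the authors trimmed reads (Cutadapt, Trimmomatic), removed those under 22 nucleotides, used STAR and, for reads left unmapped, Bowtie2 against mm10, retained only primary alignments of multimappers and counted with HTSeq. The annotation, strand setting and versions are not given in the sources used here. The values deposited by the authors are a signal, reads of each gene divided by 1 size factor (0.823 to 1.22), and dividing by the step gave whole reads for 100% of values (tolerance 0.01). All 18 columns were used, and no pair was identical.

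The main test was limma 3.58.1 (R 4.3.3) on log2(normalized count + 1), with the 4 group means over 18 samples, eBayes with trend, two-sided tests and Benjamini-Hochberg adjustment over the 11992 genes with a mean of at least 10. A threshold of 0.05 was used. Fold changes on this scale understate changes of low genes. edgeR 4.0.16 and DESeq2 1.42.0 on the recovered reads, other pseudocounts, filters and scalings, subsets of samples and a replicate block were alternatives, and tests were checked on simulated data. Pairs of members were compared by permutation over all 18 samples, without regard to group or library set (100000 resamples, SciPy 1.17.1). Promoters are RefSeq (GRCm38.p6), transcripts and positions GENCODE M21, aligned with Biopython 1.88.

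Named were all members, the other family genes, list genes past the threshold or with the 3 smallest p per comparison, and the 2 most alike genes per member; some list genes that this rule names are not reported here. The members and lists were chosen with earlier results of these data known. The library-set model and the ribosomal gene set were added after values were seen. Floors of 3 reads (2.46 to 3.64 normalized counts) cover counting error only.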

Additional observations from a re-analysis of the deposited data

Results flagged for a closer look

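In the 20 groups of 6 samples searched (10 members, 2 αPD-L1 groups), 2 single values stood apart from their group by Dixon's criterion at the 95% level, which chance exceeds in about 1 of 20 groups. Both belonged to Nr2f6+/+ αPD-L1 replicate 1. Bax was at 607.8 normalized counts there against 65.0 to 240.5 in the other 5 samples. Bak1 was at 2412 against 504.8 to 939.0. Their gaps to the next sample made up 0.677 and 0.772 of the group's range. The same library also had the lowest Mcl1 of the series (5749). The cause was not tested.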

How the results depend on the processing

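Of 1019 recomputed values of single members, 982 kept the direction and the side of the threshold, 29 turned direction, 7 moved past the threshold and 1 fell short of it. Between the 4 groups 0 members were called at the adjusted threshold under the settings tried, with 2 exceptions, which are Bcl2a1d between genotypes under αPD-L1 within library set 1 (below) and Bcl2a1d between Nr2f6-/- αPD-L1 and Nr2f6+/+ IgG2b with the first library set only (1 member, -1.57, adjusted p = 0.0456 by limma, where 0.417% of all genes passed). With an unadjusted p, 1 member was counted in 4 of the 6 comparisons. The replicate number did not pair samples (correlations of deviations between -0.03 and 0.04, with 1 of 6 IgG2b and 3 of 12 αPD-L1 samples closest to their own number), and with a replicate block 0 members were called, with Bcl2a1d between the groups differing in both factors at -1.14.

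Some genotype differences under αPD-L1 turned direction. Bcl2 was at -0.0103 with edgeR and -0.0128 with DESeq2, and at -0.19 without 2 libraries with extreme values (Nr2f6+/+ αPD-L1 replicate 2 and Nr2f6-/- IgG2b replicate 2), where Bax was at -0.0867 and Bid at -0.0842. Mcl1 was at 0.0370 with the first set only or within it. Within library set 2 Bcl2 was at -0.23, Bcl2a1d at 0.36, Bax at -0.30, Bid at -0.51 and Pmaip1 at -0.23, and within set 1 1 member was called (Bcl2a1d, -1.36). Leaving out a replicate moved Bcl2 between -0.19 and 0.21, Mcl1 between -0.15 and 0.0604, Bax between -0.24 and 0.53 and Bid between -0.28 and 0.42. The treatment difference of Bcl2 in Nr2f6-/- TILs moved between -0.22 and 1.65 and was -0.22 without the 2 libraries. Of 34 other fold changes of members, 22 turned direction under some alternative, 0 passed the threshold and all 22 were within 0.70 of 0.

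The difference of Bcl2a1d between sets in the Nr2f6-/- αPD-L1 group lay between 1.97 and 2.35 when a replicate was left out, with 1 to 2 members called (Bcl2a1b as well without Nr2f6+/+ αPD-L1 replicate 1 or Nr2f6-/- αPD-L1 replicate 4, where 1.27% and 0.859% of all genes passed). It was 2.19 with 0 members called when only that group was fitted, where 0% of all genes passed. DESeq2 called 3 members (Bcl2a1d, Bcl2a1b at 1.12 and Bid at -1.90), where 3.98% of the genes with an adjusted p passed. The causes were not tested.

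Counts over all genes depended on the tool. For genotype under αPD-L1 the count was 21 with limma, 4 with only the groups compared and 184 with DESeq2, and under IgG2b it was 0 and 88. For treatment it was 29, 6 (without Nr2f6+/+ IgG2b replicate 3) and 94 in Nr2f6+/+, and 39, 8 (first library set only) and 230 in Nr2f6-/- TILs. Between the groups differing in both factors it was 74, 10 (without Nr2f6+/+ IgG2b replicate 2) and 177, and for the difference of effects 0 and 76. Where limma called 0 genes, 641 and 596 had an unadjusted p under 0.05.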
